A study of Mus musculus with 22 samples.

Results

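The comparison set B cells activated with aCD40+IL4 against B cells activated with LPS+IL4, 2 of the 22 libraries of a mouse RNA-Seq series in which each group holds 1 library. Per the labels, mature B cells came from C57BL/6J spleen by negative selection, and poly(A) RNA from 0.5 M cells was read for 50 cycles. The labels give no dose, no culture time and no animal for either culture. Both groups share the spleen source, the strain and IL4, and they differ in the partner of IL4. For context the other 5 primary B libraries are given beside them: the activated cultures labelled LPS, LPS+IL21, LPS+a-d-dextran and aBCD180, and splenic B cells. Protein-coding rows were compared on the transcripts-per-million (TPM) scale by the difference in log2(TPM + 1), written below as aCD40+IL4 minus LPS+IL4. Of 20674 protein-coding rows, 13 were left out (10 haemoglobin genes, Tgoln2, Entpd4 and Entpd4b), and 8651 reached 10 TPM in either library.

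CD40 is the receptor on B cells for CD40 ligand of helper T cells. It signals through TRAF adaptors to both arms of NF-kB. LPS is bacterial lipopolysaccharide, which B cells sense through TLR4 with the MD-2 protein (gene Ly96) and through the related receptor RP105 (Cd180). IL4, a cytokine of helper T cells, acts through JAK kinases and STAT6 and, beside either stimulus, is known to drive mouse B cells towards switching to IgG1 and IgE.

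With 1 library per group there is no spread between replicates and no test, and every statement below is about these libraries. A gene counted as higher or lower if both libraries were 1 or more apart in log2(TPM + 1) and the higher one held 10 TPM or more. The libraries differed in more than their stimulus. Total expected counts were 44.6 M in aCD40+IL4 and 88.2 M in LPS+IL4. A gene at 9 to 11 TPM rested on a median of 682 counts in aCD40+IL4 (95% counting interval -7.4% to 7.8%) and 1520.5 in LPS+IL4 (-5.0% to 5.2%). These intervals cover counting error only. The authors' effective lengths were shorter than the gene lengths by 48.57 bases in aCD40+IL4 and by 49.0 in LPS+IL4, a value it shares with splenic B cells and 2 other libraries. Haemoglobin transcripts made up 1.158% of TPM in aCD40+IL4 and 0.001% in LPS+IL4, against 0.211% to 1.854% in the other 4 activated cultures.

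B-cell markers were high in both libraries, with Cd79a at 1836 TPM in aCD40+IL4 and 1287 in LPS+IL4. Markers of other cells were mostly low but unequal. The summed level of 7 T-cell markers was 9.29 TPM in aCD40+IL4 and 1.18 in LPS+IL4, with no marker at 0 in either library. The 5 natural killer markers summed to 104 and 1.45 TPM, with Ncr1 and Klrd1 at 0 in LPS+IL4, and 81.8 of the 104 TPM came from Gzma, the granzyme A gene. The 4 erythroid markers summed to 60.8 and 0.83 TPM, with Slc4a1 at 0 in LPS+IL4. The 4 neutrophil markers summed to 4.88 TPM in aCD40+IL4 and were at 0 in LPS+IL4, and the 4 basophil and mast cell markers summed to 8.55 and 0.12 TPM. The 7 macrophage markers summed to 31.2 and 48.0 TPM. Of these, Cd68 and the F4/80 gene Adgre1 carried most, and C1qa was among those at 0 in LPS+IL4. The 5 stromal markers summed to 36.1 and 33.1 TPM, nearly all of it from Pecam1. The 6 dendritic cell markers summed to 9.94 and 94.98 TPM, and 88.0 TPM of the latter came from Flt3. In bulk RNA, fewer cells of a type and less RNA per cell cannot be told apart.

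Of the 8651 genes, 2177 (25.2%) passed the limit, 1335 (15.4%) of them higher and 842 (9.73%) lower in aCD40+IL4 than in LPS+IL4. At a difference of at least 2 the order turned, with 218 genes (2.52%) higher and 361 (4.17%) lower. The median difference over all genes was 0.24, so the scale itself leaned towards aCD40+IL4. After TMM scaling of the counts, which moved that median by -0.23, 926 genes were higher and 1187 lower, and the share of higher among the called genes went from 61.3% to 43.8%. Directions below are on the TPM scale and are to be read against the median of 0.24. Values on both sides of the limit ran together: the smallest difference counted as higher and the largest not counted were both 1.00. The widest differences pointed to LPS+IL4, as the scatter of both libraries shows.

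**Figure D1:**
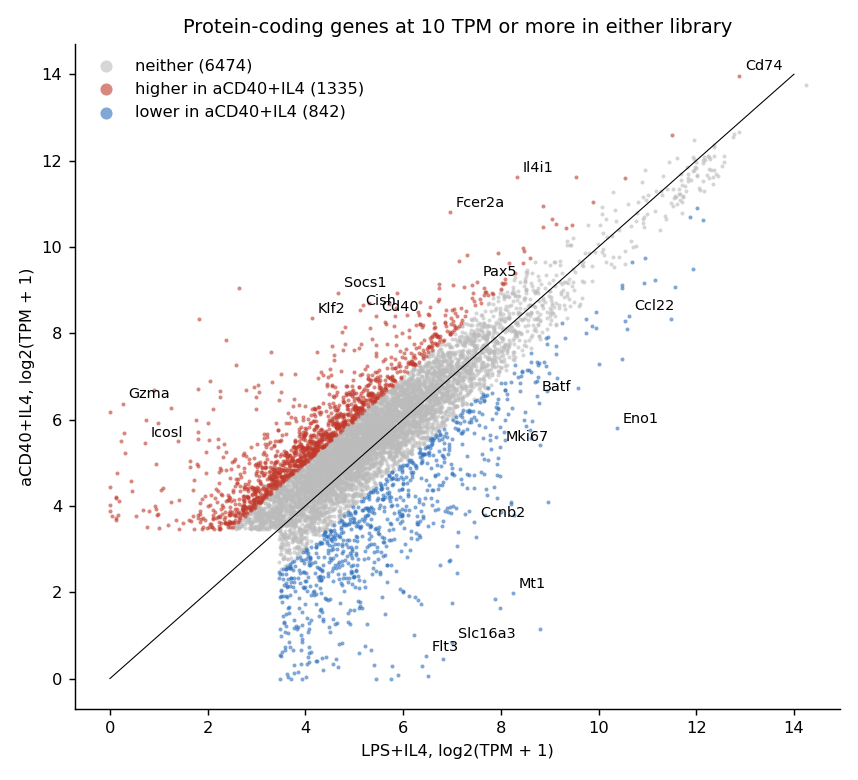
Level of each of the 8651 genes in LPS+IL4 (x axis) and aCD40+IL4 (y axis), both in log2(TPM + 1), with 1 point per gene and the diagonal as a line. The 1335 genes higher in aCD40+IL4 are red and the 842 lower are blue, with Klf2 (325 against 16.7 TPM) and Mt1 (2.93 against 305 TPM) far from the line.

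The members were read in 23 lists by role, with a list of hypoxia-inducible genes added after the data were seen. Over all fixed lists, 507 genes reached 10 TPM, of which 106 were higher and 142 lower. Counts of each list below are to be read beside the shares over all genes tested, 15.4% higher and 9.73% lower. Mitosis, glycolysis and hypoxia-inducible genes had the lowest medians (-2.70, -2.12 and -2.85). Chemokine receptors and positioning genes had the highest (1.51), followed by ribosome biogenesis (1.00), B-cell identity (0.99), IL4 and STAT6 response (0.95) and MHC class II presentation (0.92). The medians of the germinal centre list (0.10) and the plasma cell list (0.18) were below that of all genes and changed sign after TMM scaling, to -0.11 and -0.05.

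**Figure D2:**
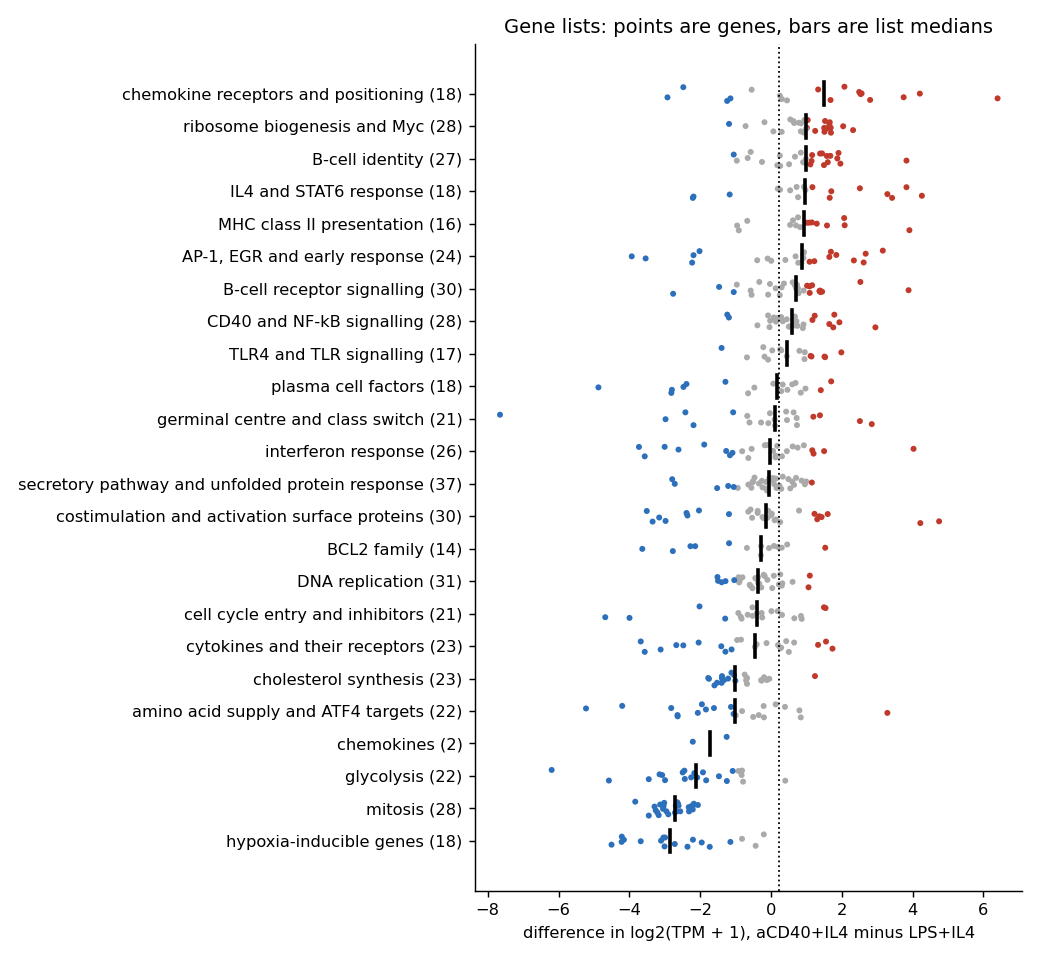
Difference in log2(TPM + 1), aCD40+IL4 minus LPS+IL4, for each gene of 24 lists, with 1 point per gene, black bars at list medians, the number of genes in brackets and a dotted line at the median of all genes (0.24). Red points are at 1 or more and blue points at -1 or less. All 28 mitosis genes lie left of -2.

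Most genes of the CD40 pathway passed neither limit. Of 28 in the CD40 and NF-kB list, 7 were higher in aCD40+IL4 (15.4% of all genes were), 2 were lower and 19 passed neither, with a median of 0.59 against 0.24 over all genes. The list mean of log2(TPM + 1) was 6.54 in aCD40+IL4 and 5.92 in LPS+IL4, the lowest of the 7 libraries, with 5.98 to 6.32 in the other 4 activated cultures and 6.50 in splenic B cells. Cd40 itself was at 334 TPM in aCD40+IL4 and 42.4 in LPS+IL4, a difference of 2.95. The other activated cultures lay between 76.9 TPM (aBCD180) and 181 (LPS), so aCD40+IL4 was the highest of the 6 and LPS+IL4 the lowest. Genes of the alternative NF-kB arm were mixed. Traf3, an adaptor that marks the kinase NIK for breakdown, was at 68.5 against 17.2 TPM (1.93), and Map3k14, which encodes NIK, at 56.0 against 15.9 (1.76). Of the ubiquitin ligases, Birc3 was higher at 293 against 84.2 TPM (1.79), and Birc2 was lower at 72.4 against 172 TPM (-1.23). Ikbkb, a kinase of the classical arm, was higher in aCD40+IL4 at 192 against 60.5 TPM (1.65), and Rela, which encodes the p65 subunit, at 113 against 49.4 (1.17). Other genes of the alternative arm passed neither limit, with Traf2 at 45.0 and 35.5 TPM (0.33), Chuk at 56.4 and 50.2 (0.17), Relb at 79.8 and 49.7 (0.67) and Nfkb2 at 202 and 183 (0.14). The NF-kB inhibitors Nfkbia, at 239 and 253 TPM (-0.08), and Tnfaip3, at 134 and 94.4 (0.51), passed neither as well. Traf1, an adaptor and NF-kB target, was lower at 50.3 against 116 TPM (-1.19).

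In the TLR list, 5 of 17 genes were higher, 1 was lower and 11 passed neither limit, with a median of 0.45. Over all genes, 15.4% were higher and 9.73% lower. With TMM scaling, 3 of 18 genes of the list were higher and 0 lower. Tlr9, a sensor of bacterial DNA, was at 92.7 TPM in aCD40+IL4 and 22.6 in LPS+IL4 (1.99). Tlr4 reached 10 TPM in neither library, at 3.67 and 5.60 TPM. Ly96, its partner in binding LPS, was the gene of the list that was lower, at 8.83 against 24.9 TPM (-1.40). Cd180 was at 159 and 91.0 TPM (0.80), and Myd88, the shared adaptor, at 66.4 and 48.4 TPM (0.45).

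Although both cultures had IL4, transcripts of the IL4 response differed widely between them. Of 18 genes in the list, 8 were higher in aCD40+IL4 and 3 lower (median 0.95), against 15.4% and 9.73% of all genes. The genes that separated most were feedback inhibitors of cytokine signalling and IL4-inducible enzymes and receptors. Cish, an inhibitor of STAT signalling, was at 369 TPM in aCD40+IL4 and 33.5 in LPS+IL4 (3.42), against 0.21 to 9.05 TPM in the other 4 activated cultures. Both IL4 cultures were thus the highest for Cish. Socs2, of the same family, showed that order at 110.1 and 48.4 TPM (1.17), with 1.31 to 5.92 TPM elsewhere. Socs1 was at 490 against 24.6 TPM (4.26), and here LPS+IL21 (279 TPM) lay above LPS+IL4. Socs3 was at 106 against 33.0 TPM (1.66), far below LPS+IL21 with 998 TPM.

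Il4i1, an IL4-induced enzyme that oxidises amino acids, was at 3139 TPM in aCD40+IL4 and 321 in LPS+IL4 (3.29). The other activated cultures held 93.6 to 368 TPM, so LPS+IL4 did not stand out from cultures without IL4. The same held for Fcer2a, the low-affinity IgE receptor CD23, at 1778 against 124 TPM (3.83), with 350.4 TPM in LPS alone and 1206 in splenic B cells. Nfil3, a leucine-zipper factor, was at 551 against 169 TPM (1.70) and at 2.76 to 61.1 TPM in the other 4. Bcl6, the repressor that directs germinal centre fate, was at 50.0 against 7.95 TPM (2.51). The other 4 held 6.39 to 27.2 TPM of Bcl6, and splenic B cells held more than aCD40+IL4, at 76.0 TPM. Of the members on the other side, Ccl22, a chemokine that draws T cells through CCR4, was at 339 against 1571 TPM (-2.21). The AP-1 factor Batf was at 92.3 against 424 TPM (-2.19), and Bhlhe41 at 7.63 against 18.4 (-1.17). Batf was also at 280 to 417 TPM in the LPS cultures without IL4, and at 72.05 TPM in aBCD180. The receptor and its relay were less unequal, with Il4ra at 366 and 221 TPM (0.72), Jak3 at 185 and 96.5 (0.93) and Stat6 at 165 and 113 (0.54).

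**Figure D3:**
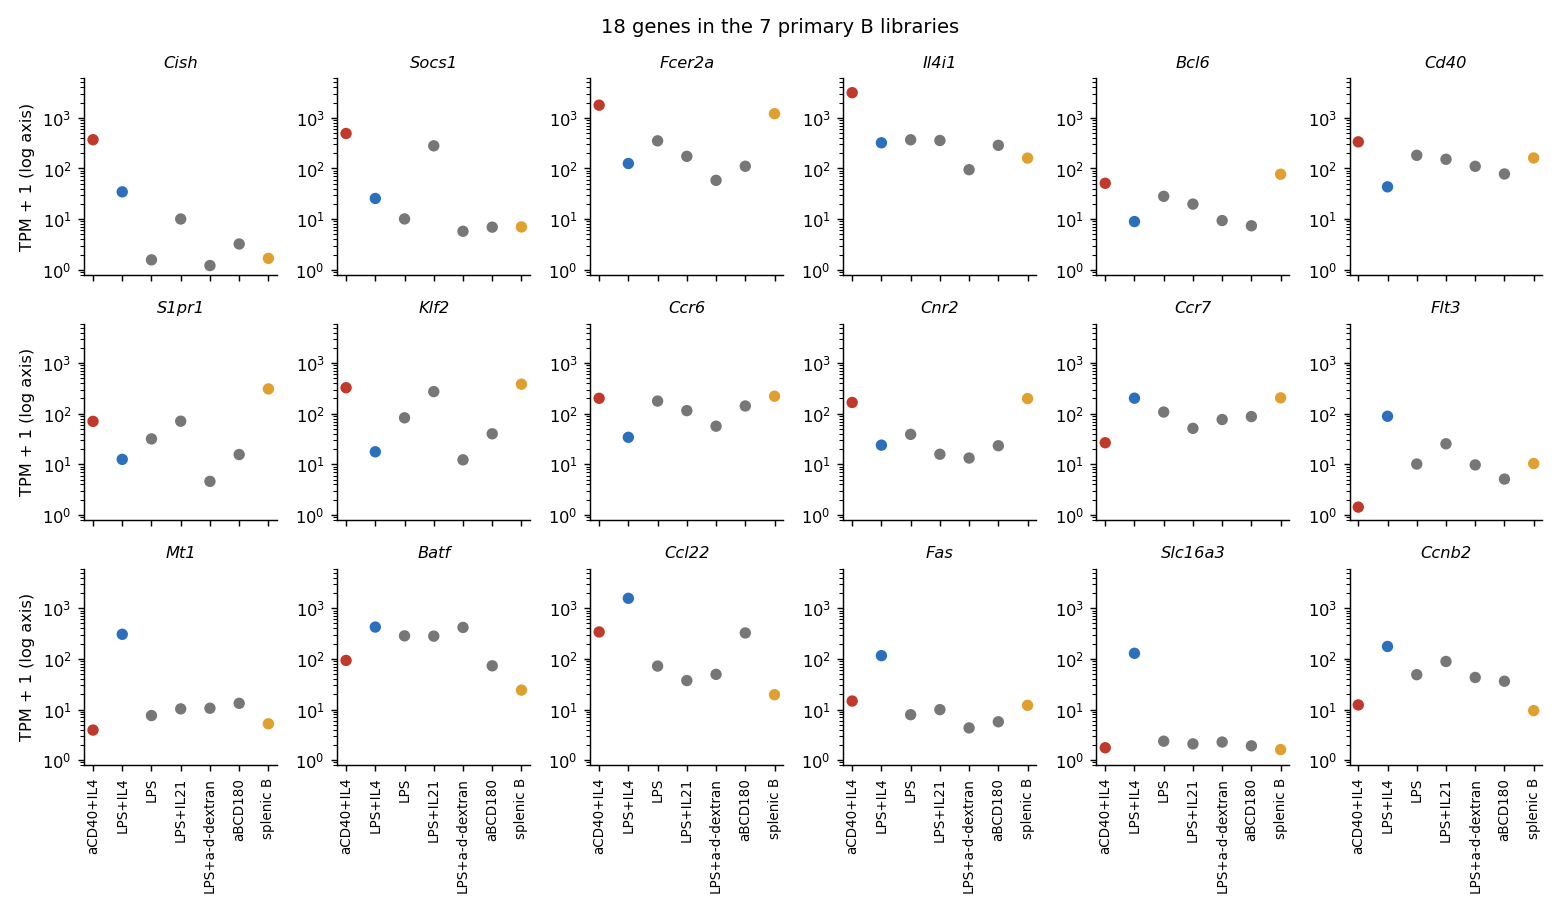
TPM + 1 of 18 named genes in the 7 primary B libraries, on a log axis, with 1 point per library (red aCD40+IL4, blue LPS+IL4, grey the other 4 activated cultures, orange splenic B). Cish is highest in aCD40+IL4 (369 TPM) and next in LPS+IL4 (33.5 TPM), and Fas (115 TPM) and Slc16a3 (128 TPM) are high in LPS+IL4 alone among the 7.

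STAT proteins bind palindromes of TTC and GAA. Of 17 list genes with a promoter entry in RefSeq (GRCm38.p6, 250 bases before and 50 after each start), 3 (17.6%) held TTC and GAA with 3 bases between them on either strand. With a gap of 4 bases, which STAT6 is known to prefer, 1 (5.9%) held it. Over 16028 protein-coding genes the shares were 9.1% and 7.3%. A promoter entry was not found for Socs2. Shown are the 250 bases before the start for the list gene with the largest difference that held each spacing there, Bcl6 (chr16:23981284-23981533, minus strand) and Fcer2a (chr8:3690862-3691111, minus strand), written 5′ to 3′ along the gene with the matches in capitals.
Bcl6: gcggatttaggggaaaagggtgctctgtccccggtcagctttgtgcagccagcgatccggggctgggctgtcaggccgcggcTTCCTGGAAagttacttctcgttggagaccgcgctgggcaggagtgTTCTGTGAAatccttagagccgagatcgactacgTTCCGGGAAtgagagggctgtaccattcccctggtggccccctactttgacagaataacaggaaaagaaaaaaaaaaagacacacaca
Fcer2a: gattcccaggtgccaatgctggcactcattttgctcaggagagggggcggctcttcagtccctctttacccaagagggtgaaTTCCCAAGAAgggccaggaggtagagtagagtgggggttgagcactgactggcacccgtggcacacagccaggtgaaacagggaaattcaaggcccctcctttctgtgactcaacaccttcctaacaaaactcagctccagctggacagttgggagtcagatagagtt
Bcl6 held 3 matches with a gap of 3 bases, the nearest beginning 88 bases before the start, and Fcer2a held 1 with a gap of 4, beginning 168 bases before it. A match is a run of letters, and no binding was measured here.

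Genes that place B cells in spleen and lymph nodes were the list with the highest median (1.51). In it, 10 of 18 genes were higher in aCD40+IL4 and 4 lower, against 15.4% and 9.73% of all genes. Klf2, a factor of quiescent lymphocytes known to drive S1pr1, was at 325 against 16.7 TPM (4.20), with 272 TPM in LPS+IL21, 381 in splenic B cells and 11.3 in LPS+a-d-dextran. S1pr1, the receptor that lets lymphocytes leave tissue, was at 69.5 against 11.54 TPM (2.49). For Klf2 and S1pr1, aCD40+IL4 lay nearer to splenic B cells than LPS+IL4 did.

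The related receptor S1pr3 was at 46.1 against 2.51 TPM (3.75) and S1pr4 at 95.7 against 29.1 (1.68). Cnr2, a cannabinoid receptor that holds B cells in the splenic marginal zone, was at 166 TPM in aCD40+IL4 and 22.9 in LPS+IL4 (2.80), against 12.3 to 38.1 TPM in the other 4 activated cultures and 198 in splenic B cells. Gpr183, which guides B cells to the outer follicle, was at 215 against 50.3 TPM (2.07), and 215 TPM was the highest of the 7 libraries. Ccr6 was at 200.4 against 33.2 TPM (2.56), with LPS+IL4 below the 55.7 to 177 TPM of the other 4 cultures. Ccr7, which draws cells to the T-cell zone, went the other way at 25.7 against 201 TPM (-2.92), and 25.7 TPM was the lowest of the 7. Cxcr5, the follicle receptor, was at 194 and 163 TPM (0.25). Itgb1, an integrin chain, was lower in aCD40+IL4 at 35.8 against 85.9 TPM (-1.24), and Gpr55 at 2.33 against 17.5 (-2.48). For 6 of the 18 genes aCD40+IL4 stood at least 1 away from each of the other 5 activated cultures, and for 2 genes LPS+IL4 did. Over all genes tested, aCD40+IL4 stood so above the others for 1.69% and below for 1.81%, and LPS+IL4 below for 2.84% and above for 3.46%.

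In the list of mature B-cell identity genes, 13 of 27 were higher in aCD40+IL4, 1 was lower and 13 passed neither limit, with a median of 0.99. Pax5, the factor that keeps B-cell identity, was at 584 against 182 TPM (1.68), and 584 TPM exceeded the 462 of splenic B cells. Ets1 was at 344 against 91.1 TPM (1.91), Ebf1 at 79.5 against 35.4 (1.15) and Ikzf3 at 343 against 114 (1.58). Among surface proteins, Ms4a1 (CD20) was at 1605 against 527 TPM (1.60) and the inhibitory receptor Cd22 at 962 against 353 (1.44). Fcgr2b, the inhibitory Fc receptor, was the exception at 70.0 against 146 TPM (-1.05). With TMM scaling, 10 of the 27 were higher and 2 lower. In the B-cell receptor list, 10 of 30 genes were higher and 3 lower (median 0.69), against 15.4% and 9.73% of all genes. After TMM scaling, 6 of the 30 were higher and 4 lower. The higher ones included inhibitors of receptor signalling, with the lipid phosphatase Inpp5d at 306 against 116 TPM (1.40). Close to the limit of 1 were the inhibitors Siglecg at 259 against 127 TPM (1.02) and Dok3 at 157 against 73.0 (1.09). The inhibitor Ptpn6 passed neither limit at 701 and 369 TPM (0.92). Genes that relay receptor signals were higher too, with Vav1 at 154 against 72.0 TPM (1.09) and Rasgrp3 at 126 against 21.1 (2.52). Lcp2, the SLP-76 adaptor, was lower at 6.26 against 48.3 TPM (-2.76), and LPS+IL4 was the highest of the 7 libraries for it, the other 5 holding 0.2 to 10.9 TPM.

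Presentation by MHC class II followed the same direction, with 8 of 16 genes higher and none lower (median 0.92), and 5 higher and 2 lower with TMM scaling. Summed over the list, these genes made up 3.25% of TPM in aCD40+IL4 and 1.64% in LPS+IL4. The other activated cultures held 0.32% to 2.32%, and splenic B cells 4.36%. Ciita, the master activator of class II genes, was at 444 against 105 TPM (2.07), against 19.6 to 139 TPM in the other 4 activated cultures. Cd74, the invariant chain, was at 15991 against 7559 TPM (1.08). The class II chains themselves did not reach a difference of 1, with H2-Aa at 4028 and 2771 TPM (0.54), H2-Ab1 at 3520.4 and 1988 (0.82) and H2-Eb1 at 2905 and 1887 (0.62). H2-DMb2, a chain of the peptide editor DM, was at 3157 against 745 TPM (2.08), and H2-Ob, of its inhibitor DO, at 473 against 212 (1.15). H2-DMb1 and H2-DMb2 are close copies, so the split of reads between them is uncertain. March1, a ligase that removes class II from the surface, was also higher, at 51.8 against 2.51 TPM (3.91). Rfxap and Rfxank, subunits of the RFX complex, leaned the other way at 12.6 and 24.6 TPM (-0.91) and at 15.5 and 30.9 TPM (-0.96), and these 2 were the genes called lower after TMM scaling.

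Class switch and germinal centre genes split by gene. Of 21 in the list, 4 were higher and 5 lower, against 15.4% and 9.73% of all genes. Ung, a uracil glycosylase of base excision repair, was at 55.9 against 23.8 TPM (1.20). The other 4 activated cultures held 66.68 to 139.8 TPM of Ung, so LPS+IL4 was the lowest activated culture and aCD40+IL4 the next. Apex1, an endonuclease of the same pathway, was higher in aCD40+IL4 at 302 against 115 TPM (1.38). Msh6, of mismatch repair, was at 76.0 and 80.0 TPM (-0.07). Fas, the death receptor and a germinal centre marker, was at 13.7 against 115 TPM (-2.98), and at 3.34 to 8.95 TPM in the other 4 activated cultures. Mef2b was at 35.8 against 195 TPM (-2.42). Gcnt1, an enzyme of O-glycan branching, was higher at 16.0 against 1.37 TPM (2.85). It was at 5.93 to 21.55 TPM in the other 4, so LPS+IL4 was the low library.

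Plasma cell factors were few and mixed, with 2 of 18 higher and 6 lower, against 15.4% and 9.73% of all genes. Prdm1, the gene of the plasma cell regulator Blimp-1, reached 10 TPM in neither, at 1.82 and 5.04 TPM, and was at 38.3 TPM in LPS+IL21. Xbp1 was at 447 and 227 TPM (0.97), Irf4 at 98.1 and 60.2 (0.69) and Jchain at 48.98 and 77.2 (-0.65). Mzb1, an endoplasmic reticulum protein of antibody-making cells, was lower at 274 against 1525 TPM (-2.47), with 302 to 699 TPM in the other 4 activated cultures. Derl3, of the degradation machinery, was at 13.95 against 35.5 TPM (-1.29). The lowest member, Ly6a at 16.1 against 502 TPM (-4.87), is also in the 12-gene pattern below, along which stimuli do not divide. Of the secretory genes, 31 of 37 passed neither limit, with a median of -0.05. The chaperone gene Hspa5 was at 808 and 554 TPM (0.54), and Hyou1 was the gene of the list that was higher, at 183 against 81.8 TPM (1.15). After TMM scaling, 0 of 39 secretory genes were higher and 7 lower. Ssr3, of the translocon, was lower at 136 against 391 TPM (-1.52).

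Surface molecules for contact with T cells went both ways, 7 of 30 higher and 8 lower (median -0.15), against 15.4% and 9.73% of all genes. Icosl, the ligand of ICOS, was at 43.1 against 0.64 TPM (4.75), with 6.09 to 77.0 TPM in the other 4 activated cultures and 466 in splenic B cells. Cd83 was at 1408 against 463 TPM (1.60) and Slamf1 at 62.1 against 2.39 (4.22). Cd80, a B7 ligand of CD28, was lower at 2.13 against 34.6 TPM (-3.51), and Cd86 at 35.8 against 82.7 (-1.19). Members of the TNF and TNF receptor families went both ways. Tnfrsf14 was higher at 86.9 against 36.5 TPM (1.23), as was Cd40, described above, and Tnfrsf13b was at 127 and 115 (0.14). Tnfrsf8 (CD30) was lower at 6.90 against 69.5 TPM (-3.16), as were Tnfsf8 at 1.39 against 23.3 (-3.34) and Tnfsf9 at 5.25 against 24.6 (-2.03). For 7 of the 30 genes LPS+IL4 stood apart from the other 5 activated cultures, and for 3 genes aCD40+IL4 did.

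Among 23 cytokine and receptor genes, 3 were higher and 9 lower (median -0.45), against 15.4% and 9.73% of all genes. Il2ra, the IL2 receptor alpha chain, was at 5.20 against 52.8 TPM (-3.12), and Il2rb, the beta chain, at 26.8 against 72.5 (-1.40), with 2.09 to 7.45 TPM of Il2rb in the other 4. Both IL4 cultures were thus the highest for Il2rb. Ebi3, a subunit of IL27 and IL35, was at 32.6 against 213 TPM (-2.67). Il6 was at 0.27 against 14.04 TPM (-3.57), with 12.8 TPM in LPS and 19.8 in LPS+a-d-dextran, so it was low in both activated cultures without LPS (0.12 TPM in aBCD180). Il12a was at 4.48 against 29.5 TPM (-2.48), with 11.6 to 35.4 TPM in the other 4. Il9r was higher in aCD40+IL4, at 48.1 against 13.7 TPM (1.74), and Tgfb1 at 196 against 66.1 (1.55). The CD3 genes Cd3e, Cd3d and Cd3g were at 2.12, 1.45 and 2.25 TPM in aCD40+IL4 and at 0.03, 0.15 and 0.43 TPM in LPS+IL4.

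The mitosis list separated the libraries without exception. All 28 genes, which serve the spindle, chromosome segregation and exit from division, were lower in aCD40+IL4 by at least 2, with differences from -3.83 to -2.06 and a median of -2.70. Ccnb2, the cyclin B2 gene, was at 11.3 TPM in aCD40+IL4 and 175 in LPS+IL4 (-3.83), with 35.2 to 87.9 TPM in the other 4 activated cultures and 8.52 in splenic B cells. Mki67, which encodes the Ki-67 antigen, was at 40.5 against 253 TPM (-2.61), with 165 to 211 TPM in the other 4 and 21.2 in splenic B cells. Plk1, a mitotic kinase, was at 11.47 against 111 TPM (-3.17). In Ccnb2, Mki67 and Plk1, aCD40+IL4 lay between splenic B cells and the activated cultures. For all 28 genes aCD40+IL4 stood at least 1 below each of the other 5 activated cultures, where 1.81% of all genes did so, and it was above splenic B cells for 27. The mean log2(TPM + 1) of the list was 3.86 in aCD40+IL4, 6.65 in LPS+IL4, 5.89 to 6.31 in the other 4 and 2.95 in splenic B cells.

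Genes of DNA replication did not share that gap. Of 31, 2 were higher and 5 lower, with a median of -0.36, against 15.4% and 9.73% of all genes. After TMM scaling, 9 were lower and none higher. Pcna, the sliding clamp, was at 501 and 429 TPM (0.22), and Mcm5 of the replicative helicase at 183 and 148 (0.30). The lower members were mostly in nucleotide supply and origin firing: Tyms at 12.7 against 38.2 TPM (-1.51), Tk1 at 69.0 against 196 (-1.50), Rrm2 at 61.5 against 151 (-1.28) and Cdc45 at 24.3 against 65.4 (-1.39). The list mean was 5.73 in aCD40+IL4 and 6.09 in LPS+IL4, both below the 6.55 to 7.29 of the other 4 activated cultures and above the 4.25 of splenic B cells. In the list of cell cycle entry and inhibitor genes, 2 of 21 were higher, 4 lower and 15 passed neither limit. The lower ones included 3 inhibitors of cyclin-dependent kinases: Cdkn1a (p21) at 1.42 against 37.6 TPM (-4.00), Cdkn2a at 0.58 against 39.5 (-4.68) and Cdkn2c at 11.3 against 29.1 (-1.29). The related inhibitors Cdkn1b (-0.52) and Cdkn2d (-0.85) passed neither limit, and the growth arrest genes Gadd45g (1.54) and Btg1 (1.50) were the higher ones. Cdkn1a and Cdkn2a were at 1.61 to 7.87 and 0.49 to 6.00 TPM in the other 4, so LPS+IL4 was the high library. Cyclin D2 (Ccnd2) was at 175 and 111 TPM (0.66) and Cdk4 at 283 and 249 (0.19).

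Promoters of mitotic genes are known for the cell cycle homology region, TTTGAA, which the DREAM complex reads. This motif was searched after the data were seen, on both strands. Of 23 mitosis genes with a promoter entry, 18 (78.3%) held it, against 17.5% of 16028 protein-coding genes and 22.4% of the 653 genes with an entry that were lower in aCD40+IL4. In the 100 bases before the start, 34.8% of the mitosis genes and 5.1% of all genes held it. Since the motif is known from these genes, the share describes the list and not the comparison. Shown are the 3 with the largest difference that held it before the start: Ccnb2 (chr9:70421555-70421804, minus strand), Ube2c (chr2:164769679-164769928, plus strand) and Kif11 (chr19:37376132-37376381, plus strand), 250 bases each from RefSeq, GRCm38.p6, with TTTGAA or its reverse complement TTCAAA in capitals.
Ccnb2: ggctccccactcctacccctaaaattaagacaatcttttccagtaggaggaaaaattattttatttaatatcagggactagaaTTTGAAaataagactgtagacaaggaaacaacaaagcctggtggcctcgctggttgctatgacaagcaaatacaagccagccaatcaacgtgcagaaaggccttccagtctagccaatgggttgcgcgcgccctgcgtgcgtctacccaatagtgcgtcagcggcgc
Ube2c: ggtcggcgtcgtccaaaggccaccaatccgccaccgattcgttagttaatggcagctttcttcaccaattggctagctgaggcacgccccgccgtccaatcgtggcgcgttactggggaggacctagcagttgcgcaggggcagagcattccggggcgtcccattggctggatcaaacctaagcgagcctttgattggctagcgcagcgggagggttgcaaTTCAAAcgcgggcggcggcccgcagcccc
Kif11: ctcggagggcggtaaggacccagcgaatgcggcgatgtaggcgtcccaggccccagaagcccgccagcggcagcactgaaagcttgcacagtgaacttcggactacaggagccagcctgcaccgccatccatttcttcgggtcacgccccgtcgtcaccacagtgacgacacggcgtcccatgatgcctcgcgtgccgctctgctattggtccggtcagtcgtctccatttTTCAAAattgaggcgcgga
The match began 167, 29 and 19 bases before the start in this order. Ube2c, a ubiquitin-conjugating enzyme of mitotic exit, was at 25.1 against 240.4 TPM (-3.21), and Kif11, the spindle motor Eg5, at 14.9 against 129 TPM (-3.03).

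Glycolysis genes were lower in aCD40+IL4 with a different order of libraries. Of 22, 17 were lower and none higher (median -2.12), and 21 were lower after TMM scaling. Their sum was 0.37% of TPM in aCD40+IL4 and 1.94% in LPS+IL4, against 0.51% to 0.88% in the other 4 activated cultures and 0.24% in splenic B cells, so LPS+IL4 was the highest. Slc16a3, the lactate exporter MCT4, was at 0.76 TPM in aCD40+IL4 and 128 in LPS+IL4 (-6.19), and between 0.62 and 1.37 TPM in the remaining 5 libraries. Tpi1 was at 168 against 1425 TPM (-3.07), Pgk1 at 321 against 2851 (-3.15) and Aldoa at 714 against 3892 (-2.45). Ldha, lactate dehydrogenase A, was at 602 against 2283 TPM (-1.92), with 901 to 1932 TPM in the other 4. Hk2, the inducible hexokinase, was at 13.3 against 59.8 TPM (-2.08), with LPS+a-d-dextran higher still at 85.3. The glucose transporters were less unequal, with Slc2a1 at 46.8 and 83.2 TPM (-0.82) and Slc2a3 at 19.6 and 34.5 (-0.79). Eno1 was at 54.6 against 1327 TPM (-4.58). It is uncertain, since it was also 1 of 4 genes higher in the 4 libraries with the effective length offset of 49.0 than in the other 18. For 10 of the 22 genes LPS+IL4 stood apart from the other 5 activated cultures, and for none did aCD40+IL4.

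The list of 20 hypoxia-inducible genes, added after these values were seen, gave 15 of 18 lower in aCD40+IL4 and none higher (median -2.85). LPS+IL4 stood above the other 5 activated cultures for 15 of the 18, where 3.46% of all genes did so. The list was picked with the values known, so these counts describe its members and give no independent support for a difference. Bnip3, a mitophagy receptor, was at 13.5 against 257 TPM (-4.15), with 9.18 to 13.0 TPM in the other 4 and 14.3 in splenic B cells. Egln3, an oxygen-sensing prolyl hydroxylase, was at 0.50 against 33.0 TPM (-4.50), and Vegfa at 2.69 against 46.3 (-3.68). Pdk1, which keeps pyruvate out of mitochondria, was at 10.5 against 90.5 TPM (-2.99). In these 4 genes aCD40+IL4 lay nearer to the cultures without IL4 than to LPS+IL4. The density, oxygen and harvest time of the cultures are not in the labels, and their part in these values cannot be told apart from the stimulus.

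ACGTG, the core that hypoxia-inducible factors bind, was also searched after the data were seen. It was in 14 of 21 glycolysis promoters (66.7%) and 11 of 14 of the hypoxia list (78.6%). The share was 23.9% of all protein-coding genes, 31.4% of the genes tested and 32.3% of the lower genes, so the lower genes were near the genes tested. Every CACGTG E-box holds ACGTG as well. The motif was picked for these lists after the values were seen, so the shares describe the lists and not the comparison. Shown are the 3 glycolysis genes with the largest difference that held it in the 250 bases before the start: Slc16a3 (chr11:120948817-120949066), Pgk1 (chrX:106186850-106187099) and Pkm (chr9:59656977-59657226), all on the plus strand of GRCm38.p6 from RefSeq, with ACGTG or its reverse complement CACGT in capitals.
Slc16a3: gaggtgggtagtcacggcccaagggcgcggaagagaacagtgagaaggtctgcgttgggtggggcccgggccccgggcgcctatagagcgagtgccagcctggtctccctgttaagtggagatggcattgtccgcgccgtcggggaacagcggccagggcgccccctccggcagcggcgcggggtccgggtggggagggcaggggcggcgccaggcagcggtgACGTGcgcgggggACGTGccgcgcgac
Pgk1: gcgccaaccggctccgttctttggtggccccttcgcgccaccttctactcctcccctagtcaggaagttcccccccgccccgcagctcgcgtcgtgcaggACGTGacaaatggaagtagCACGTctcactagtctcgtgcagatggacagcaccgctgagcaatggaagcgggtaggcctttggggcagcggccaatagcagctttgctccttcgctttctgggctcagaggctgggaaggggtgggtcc
Pkm: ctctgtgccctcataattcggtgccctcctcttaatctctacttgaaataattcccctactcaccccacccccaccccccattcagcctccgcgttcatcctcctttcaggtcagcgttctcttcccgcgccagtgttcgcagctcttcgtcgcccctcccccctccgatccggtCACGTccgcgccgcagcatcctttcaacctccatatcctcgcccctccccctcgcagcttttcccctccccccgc
Slc16a3 and Pgk1 held 2 matches each and Pkm 1, the nearest beginning 14, 131 and 75 bases before the start. Pkm, pyruvate kinase, was at 534 against 3013 TPM (-2.49).

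Other biosynthesis lists also had their highest mean log2(TPM + 1) in LPS+IL4. In cholesterol synthesis, 12 of 23 genes were lower in aCD40+IL4 and 1 higher (median -1.01), and LPS+IL4 stood apart for 11. Fdps, which makes farnesyl diphosphate, was at 254 against 859 TPM (-1.75), with 213 to 328 TPM in the other 4. Fdft1, squalene synthase, was at 50.5 against 175 TPM (-1.77), with 34.7 to 45.1 TPM in the other 4. Among amino acid supply genes and ATF4 targets, 11 of 22 were lower and 1 higher (median -1.03). The higher gene was Il4i1, described above. Asns, asparagine synthetase, was at 8.73 against 178 TPM (-4.20), Cth at 1.01 against 74.2 (-5.22), Chac1 at 1.65 against 15.5 (-2.64) and Trib3 at 1.93 against 19.3 (-2.79). Psat1 and Phgdh, of serine synthesis, were at 76.3 against 298 TPM (-1.95) and at 116 against 416 TPM (-1.84), and here LPS+a-d-dextran was close to LPS+IL4 with 323 and 371 TPM. LPS+IL4 was above LPS+a-d-dextran for 10 of the 22 genes of the amino acid list.

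For ribosome biogenesis LPS+IL4 was the low library among the activated cultures. Of 28 genes, 14 were higher in aCD40+IL4 and 1 lower (median 1.00), and 12 were higher after TMM scaling. Myc, the factor that drives these genes, was at 137 TPM in aCD40+IL4 and 43.1 in LPS+IL4 (1.65), against 132 to 307 TPM in the other 4 activated cultures and 112 in splenic B cells. Rrp12 was at 53.5 against 9.93 TPM (2.32), Dkc1 at 137 against 41.8 (1.69) and Nolc1 at 121 against 42.1 (1.50). LPS+IL4 stood at least 1 below each of the other 5 activated cultures for 14 of the 28 genes, where 2.84% of all genes did so. Npm1, a nucleolar chaperone, was the exception at 1643 against 3737 TPM (-1.18). The list mean was 7.13 in aCD40+IL4, 6.15 in LPS+IL4, 7.20 to 8.35 in the other 4 and 6.14 in splenic B cells. LPS+IL4 thus held the highest levels of mitosis and glycolysis genes among the 7 libraries and, beside splenic B cells, the lowest of ribosome biogenesis genes.

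**Figure D4:**
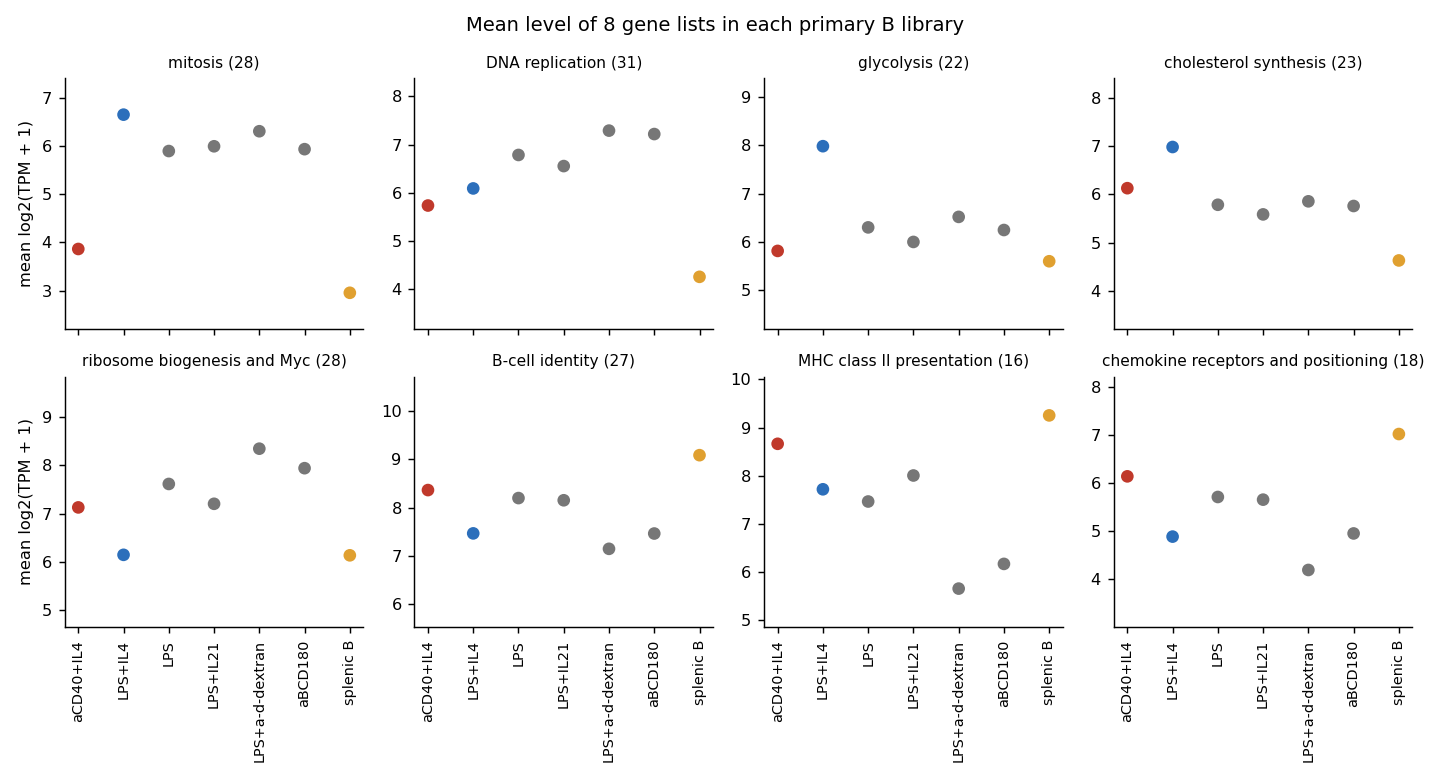
Mean log2(TPM + 1) of 8 gene lists in each of the 7 primary B libraries, with 1 point per library (red aCD40+IL4, blue LPS+IL4, grey the other 4 activated cultures, orange splenic B) and each panel spanning the same number of log2 units. In mitosis aCD40+IL4 (3.86) is near splenic B cells (2.95), in glycolysis LPS+IL4 (7.98) is above all others, and in ribosome biogenesis LPS+IL4 (6.15) is level with splenic B cells (6.14).

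Early response factors were mixed. Of 24 genes, 9 were higher in aCD40+IL4 and 5 lower (median 0.88), against 15.4% and 9.73% of all genes. Jun was at 207 against 22.3 TPM (3.16), with 299 TPM in LPS+IL21. Egr2, a zinc-finger factor induced through antigen receptor and CD40 signals, was at 143 against 21.6 TPM (2.67), and 143 TPM was the highest of the 7 libraries. Egr1 was at 69.4 against 18.6 TPM (1.85), where the other 4 held 41.5 to 67.4. The lower ones included factors that pair with JUN proteins: Batf, Batf3 at 0.42 against 15.5 TPM (-3.54) and Atf3 at 0.41 against 20.5 (-3.93). Junb was at 146 and 192 TPM (-0.39).

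In the BCL2 family, 1 of 14 genes was higher in aCD40+IL4 and 5 were lower (median -0.28), against 15.4% and 9.73% of all genes. The lower ones included 4 of the death-promoting BH3-only genes. Bcl2l11 (BIM) was at 22.4 against 112 TPM (-2.27), Bmf at 1.42 against 29.1 (-3.63), Bbc3 (PUMA) at 3.53 against 29.95 (-2.77) and Pmaip1 (NOXA) at 6.49 against 32.0 (-2.14). For Bcl2l11 LPS+IL4 was the high library (17.2 to 41.9 TPM in the other 4), and for Bmf aCD40+IL4 was the low one (4.41 to 30.4 TPM in the other 4). Bid and Bad, also BH3-only genes, passed neither limit at 86.1 and 62.4 TPM (0.46) and at 27.7 and 24.1 TPM (0.20). The fifth lower gene was Bcl2l2, a survival gene, at 11.2 against 26.8 TPM (-1.18). Bcl2 was the gene of the list that was higher, at 41.9 against 13.8 TPM (1.53). Mcl1 was at 396 and 373 TPM (0.08) and Bcl2l1 at 49.6 and 60.4 (-0.28).

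Interferon-response genes were mixed, 4 of 26 higher and 8 lower (median -0.03), against 15.4% and 9.73% of all genes. The share of higher genes was thus that of all genes. Isg15 was at 6.79 against 61.5 TPM (-3.00) and Oasl1 at 4.22 against 30.9 (-2.61). Both were higher still in LPS (99.0 and 154 TPM) and low in aBCD180 (3.22 and 0.99 TPM), so for these genes the 4 cultures with LPS were above the other 2 activated cultures. Ifih1 showed the same order, at 1.49 against 28.5 TPM (-3.57) with 13.5 to 30.7 TPM in the other LPS cultures and 3.24 in aBCD180. Gbp2, a guanylate-binding protein, was at 9.57 against 139 TPM (-3.73). Irf1 was higher in aCD40+IL4 at 149 against 65.7 TPM (1.17), and highest in LPS+IL21 at 349.

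Outside the lists by role, the largest differences towards aCD40+IL4 included genes of other cell types and genes of uncertain mapping. Of these, Gzma and Alas2 are also among the cell type markers described above. Gzma was at 81.8 against 0.20 TPM (6.11) and Ctsw, a cathepsin of cytotoxic lymphocytes, at 26.2 against 0.11 (4.62). The natural killer markers summed to 104 TPM in this library and to at most 10.7 TPM in the other 6, but Gzma itself made up 81.8 of the 104. The other markers were Prf1 at 8.37 TPM, Ncr1 at 6.29, Klrd1 at 5.47 and Klrb1c at 1.75. In splenic B cells these were at 4.65, 0.28, 5.02 and 0.42 TPM. The part of natural killer cells in these differences was not tested. Alas2, the haem synthesis enzyme of red cell precursors, was at 50.8 against 0.23 TPM (5.40), beside the haemoglobin share given above. Hist1h2ap was at 320 against 2.52 TPM (6.51), and histone genes have near-identical copies, so its level is uncertain. The class I genes H2-L, H2-Q2 and H2-Q10 also share reads with close copies.

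Among the remaining named genes, Pltp, a phospholipid transfer protein, was at 227 against 4.17 TPM (5.46), with 1.67 to 40.6 TPM in the other 4 activated cultures. Dnah8, an axonemal dynein chain, was at 102 against 0.88 TPM (5.77) and at 1.36 to 11.1 TPM in the other 4. Kcnk13, a potassium channel, was at 36.2 against 0.24 TPM (4.91) and at 0.19 to 0.32 TPM in the other 4, and Fcrls at 22.9 against 0.34 (4.16). Ctse, cathepsin E, was at 100.4 against 3.77 TPM (4.41), with 52.9 TPM in LPS. For Pltp, Dnah8, Kcnk13 and Fcrls, aCD40+IL4 stood apart from the other 5 activated cultures.

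Towards LPS+IL4 the largest differences included surface and metal-binding proteins. Il1r2, the decoy receptor of IL1, was at 0.04 against 89.7 TPM (-6.45), Gpr15, a homing receptor, at 2.10 against 253 (-6.36) and Ctla4, an inhibitor of CD28 signals, at 0.22 against 82.6 (-6.10). The metallothioneins Mt1 and Mt2 were at 2.93 against 305 TPM (-6.28) and at 0.37 against 112 TPM (-6.37). Ido1, which degrades tryptophan, was at 0.06 against 58.4 TPM (-5.81). Flt3 was at 0.43 against 88.0 TPM (-5.96), and 4.12 to 24.4 TPM in the other 4 activated cultures. The other dendritic cell markers did not rise with it in LPS+IL4, where Itgax was at 0.05, Siglech at 0.02 and Clec9a at 0 TPM, with Zbtb46 at 6.75 against 6.20 in aCD40+IL4. Mgarp, a mitochondrial protein, was at 0 in aCD40+IL4 and 42.6 TPM in LPS+IL4. For Il1r2, Gpr15, Ctla4, Mt1, Mt2, Ido1, Flt3 and Mgarp, LPS+IL4 stood above the other 5 activated cultures by at least 1.

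A further set, noticed in the data, separated the libraries in another way. In 12 genes, LPS+IL4, LPS+IL21 and splenic B cells were above aCD40+IL4, LPS, LPS+a-d-dextran and aBCD180 by at least 2: Apobec3, Cnbd2, Coro2a, H2-Q7, Isoc2b, Ly6a, Rnaset2b, Sfn, Trim12a, Trim30d, Trim5 and Zfp33b. Coro2a, a coronin, was at 0.24 TPM in aCD40+IL4, 0.40 to 0.66 in the other 3 low libraries, and 41.3, 80.7 and 75.2 TPM in LPS+IL4, LPS+IL21 and splenic B cells. Apobec3, a restriction factor against retroviruses, was at 53.5 TPM in aCD40+IL4, 47.2 to 57.0 in the other 3, and 386, 464 and 637 in the high ones. Trim12a was at 0 in aCD40+IL4 and 53.1 TPM in LPS+IL4. Another 6 genes, 3 of them unnamed models, ran the opposite way, among them Pianp at 44.7 TPM in aCD40+IL4 and 0.17 in LPS+IL4. The labels give 1 strain for the B cells, stimuli do not divide along this line, and the source of the pattern was not tested. Ddx3y, a Y-linked gene, was at 0.01 and 0.11 TPM in aCD40+IL4 and LPS+IL4, at 42.8 in LPS+IL21 and at 104 in splenic B cells, so the libraries compared here were alike in it.

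Each difference can come from either library, and the other activated cultures show which was unusual. Of the 1335 genes higher in aCD40+IL4, this library stood at least 1 above each of the other 5 activated cultures for 146 (10.9%), and LPS+IL4 stood at least 1 below each of them for 246 (18.4%), 4 genes being in both counts. Of the 842 lower genes, aCD40+IL4 was the library apart for 157 (18.6%) and LPS+IL4 for 299 (35.5%), with 11 in both. For 947 higher and 397 lower genes neither library stood apart, and the levels of other cultures bridged the gap. Cish, Fcer2a, Il4i1, Egr2, Cnr2, Ciita and the mitosis genes were in the first kind, and Slc16a3, Mt1, Fas, Ccl22 and Rrp12 in the second. Against all 4 LPS cultures, 155 genes (1.79% of those tested) were higher in aCD40+IL4 and 180 (2.08%) lower. These comparisons share the aCD40+IL4 library.

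**Figure D5:**
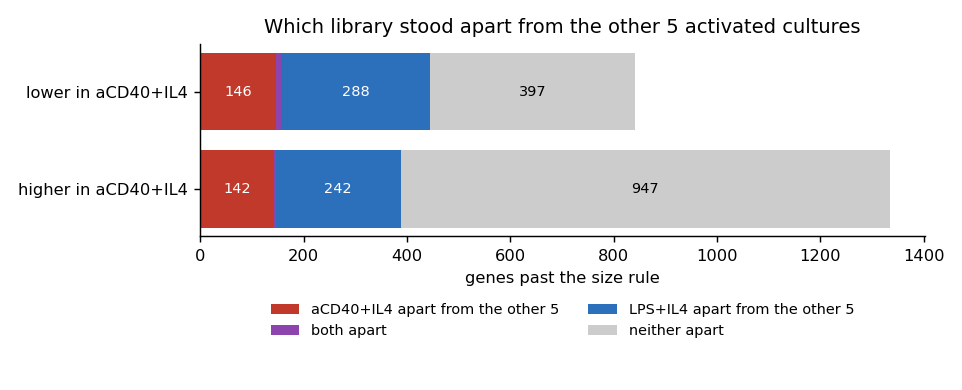
Number of genes (x axis) higher or lower in aCD40+IL4 than in LPS+IL4, split by which of both libraries lay at least 1 in log2(TPM + 1) away from each of the other 5 activated cultures in that direction. LPS+IL4 alone was apart for 242 higher and 288 lower genes, and aCD40+IL4 alone for 142 and 146.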

How the data were processed

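The study's RNA profiles of primary mouse B cells were compared between libraries, with groups taken from the labels alone and 1 library per group. Expected counts (reads per gene, shared reads divided by the estimating tool) were deposited by the authors without normalization, per the file headers. The deposited TPM add up to the same total in each library, and the deposited FPKM, which the authors scaled to length and depth, entered no result. The submitters' processing notes name the genome build mm10 and the tools RSEM, STAR, bedtools and CASAVA 1.8.2. The order and settings of their steps are not given in the sources used here. Only protein-coding rows carried values, and immunoglobulin genes were not analysed here.

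Differences were taken in log2(TPM + 1), with a pseudocount of 1 TPM and a minimum of 10 TPM in the higher library. The size rule was tested on simulated data. Changes of 2 in log2, above the limit of 1, were planted in either direction, with counting error only. That test could not judge calls near the limit or spread between cultures. Alternatives were a pseudocount of 0.1, a minimum of 1 TPM, a difference of 2, CPM from rounded expected counts scaled by TMM or RLE (edgeR 4.0.16, R 4.3.3), other comparison libraries and, added after seeing the data, centring and leaving out sets of genes. Named genes were list members at 10 TPM in either library and the 20 largest differences per direction, without unnamed models. Of the 667 list genes, 7 were not matched in the files. Some genes are not reported here. The members and lists were chosen with earlier results of these data known. The hypoxia list, the cell cycle, hypoxia and gap-of-3 STAT motifs, the comparison with the other 5 activated cultures and the 12-gene pattern were chosen after seeing the values. Counting intervals of a count in a single library are 95% Poisson intervals. Those of the log2 ratio are exact 95% binomial intervals on rounded expected counts. Promoters came from RefSeq, GRCm38.p6, matched by symbol. Scripts ran in Python 3.11.15 with numpy 2.4.6, pandas 2.3.3 and scipy 1.17.1, and plots were drawn in matplotlib 3.10.9.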

Additional observations from a re-analysis of the deposited data

How the results depend on the processing

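No paired analysis was possible because each group holds 1 library, and for the same reason no replicate could be left out. Of 1335 higher and 842 lower genes, 218 and 361 were left at a difference of at least 2, and 799 genes were higher after the median of all genes was subtracted. A minimum of 1 TPM gave 1289 lower genes, and without genes in which LPS+IL4 stood apart 543 lower genes were left. With LPS in place of LPS+IL4, 326 genes were higher and 391 lower, and with LPS+IL21 839 and 462. Of the list members, 31 were higher and 89 lower at a difference of at least 2, and 42 and 30 genes were apart from every LPS culture at that size. These comparisons use fewer genes or another library by construction. Counts under TMM (926 higher, 1187 lower) and RLE (962 and 1167) stayed within 1.5 times of the main ones, while the share of higher among called genes went from 61.3% to 43.8% and 45.2%. None of 296 named genes past the size rule changed sign under a pseudocount of 0.1, TMM, RLE or centring. They were picked for a difference of at least 1, and these settings moved the median of all genes by 0.24 or less. A change of sign was thus unlikely by construction. Of their 1184 values under these settings, 788 moved by at least the half-width of the gene's 95% counting interval (or by 1 where none existed) and 396 by less. Depth limited genes near 0 in 1 library: the half-width of the 95% counting interval of the log2 ratio had a median of 0.084 over 292 of the 296 genes and reached 3.89 for Il1r2. Spread between animals or cultures was not measured.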
